A study of Homo sapiens with 4 samples.

Results

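Long intergenic noncoding RNA genes, named LINC and a number, were taken from the deposited gene table as every row whose symbol begins with LINC followed by digits. The rule found 247 genes among the 18375 of the table, below the limit of 300 at which it would have kept the most abundant, and 245 of them were among the 18330 genes that had a normalized count of at least 10 in at least 2 of the 4 libraries and were tested. LINC01819 and LINC00926 did not reach that minimum, with mean normalized counts of 10.3 and 10.2 over the 4 libraries. No member was chosen by its values, other than by having passed into the table, where the lowest mean of a LINC gene was 9.98.

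Poly(A)-selected RNA was sequenced from RD cells, an established line of fusion-negative rhabdomyosarcoma, a soft tissue tumour of the skeletal muscle lineage. The resistant group has 2 libraries from RD cells that were selected with vincristine, a tubulin-binding drug that stops mitosis, and the parental group has 2 libraries from untreated RD cells. Selection began at 1 to 1.5 nM, raised the dose by 10 to 20% at a time for 9 to 12 months, and ended at an at least 100-fold higher half-maximal inhibitory concentration. The labels give the genotype of both groups as WT and the treatment as Untreated for the parental cells and as vincristine for the resistant cells, and the comparison asks how the resistant derivative differs from the line it came from. The resistant cells are a survivor population of 1 cell line, and the labels do not say whether the 2 libraries of a group came from 1 culture or selection or from several, and a p-value here therefore covers only the differences among the libraries of a group, which may be technical.

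LINC is the symbol that gene nomenclature gives to a long noncoding RNA gene that lies between protein-coding genes and has no name from a known function. Most such transcripts are spliced and polyadenylated like messenger RNAs, are present at lower levels and in fewer tissues, and often stay in the nucleus. A few act in cis on a neighbouring gene, a few act as scaffolds for proteins, a few turned out to encode small proteins, and for most no role has been established.

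The recovered reads per library, summed over the table, were 58861281 and 67270948 in resistant cells and 67690557 and 65818879 in parental cells. The muscle lineage was present in all libraries: 8 of 9 muscle markers were in the table, all but MYF5, and their summed normalized counts ranged over 179242 to 183442 in resistant cells and 94269 to 94566 in parental cells. Of the marker lists of other cell types, the 4 epithelial genes summed to 148 to 210 in resistant and 112 to 140.2 in parental cells, and 3 of 4 neuronal genes to 484 to 512 in resistant and 507 to 523 in parental cells, with RBFOX3 not among the rows. Of the fibroblast genes 3 of 4, all but DCN, summed to 12978 to 13197 in resistant and 8073 to 8309 in parental cells. None of the 4 endothelial genes was in the table. The part of these marker differences in the LINC results was not tested, and fewer cells of a kind and less RNA per cell cannot be told apart in bulk RNA.

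LINC genes made up a small share of the RNA, and a larger one in resistant cells. Their normalized counts, which are read counts divided by 1 size factor per library, summed to 63943 and 62539 in the resistant libraries and to 49752 and 49944 in the parental libraries. These sums were 0.100 and 0.0974% of all normalized counts in resistant cells, against 0.0760 and 0.0763% in parental cells, with no overlap between the groups. LINC02458, LINC00665 and LINC01578, the 3 LINC genes with the highest mean count, carried 21.1 and 20.1% of the LINC sum in resistant cells and 13.5 and 13.6% in parental cells. Of these 3, LINC02458 and LINC01578 were higher in resistant cells and LINC00665 was lower. A sum over genes can be moved by a few abundant ones, so the larger share does not describe the typical LINC gene.

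Of the 245 LINC genes tested, 85 rose in resistant cells (34.7%), 57 fell (23.3%) and 103 were not called, by limma on the log2 of the normalized count plus 1, with a Benjamini-Hochberg adjusted p below 0.05 over all 18330 genes. Among all genes tested, 66.9% were called, 32.7% higher and 34.2% lower, against 58.0% of the LINC genes. Other long noncoding genes (2227 tested) were called in 42.9% and protein-coding genes (13994 tested) in 74.5%. In the authors' deposited table, with its own adjusted p below 0.05, 61 LINC genes were higher, 44 lower and 142 not called, beside 27.0% higher and 29.6% lower of all genes, and all 105 LINC genes called there were called in the same direction by limma.

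Changes of LINC genes were wide for these cells. The median size of the log2 fold change, whichever its sign, was 0.63 over the LINC genes, 0.47 over other long noncoding genes, 0.33 over protein-coding genes and 0.36 over all genes. Their error was wider too, with a median SE of 0.25 on that scale against 0.07 over all genes. A call with at least 2-fold was made for 42 LINC genes higher in resistant cells, or 17.1% against 8.96% of all genes, and for 33 lower, or 13.5% against 6.57%. At 4-fold or more there were 13 higher, or 5.31% against 3.39% of all genes, and 17 lower, or 6.94% against 1.71%. Of the other long noncoding genes, 11.2% were higher and 7.59% lower by at least 2-fold. By at least 4-fold, 2.96% of them were higher and 1.93% lower. The signed median log2 fold change was 0.10, with quartiles at -0.54 and 0.73, beside 0.00 over all genes and 0.11 over other long noncoding genes. These shares describe the list and were not tested against other genes, since members were taken with earlier results of these data known.

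The libraries of the groups did not overlap for 186 LINC genes (75.9%), 105 higher and 81 lower in resistant cells, beside 82.1% of all genes. Every called LINC gene was among them, and only 4 called LINC genes differed by less than 1.2-fold.

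**Figure D1:**
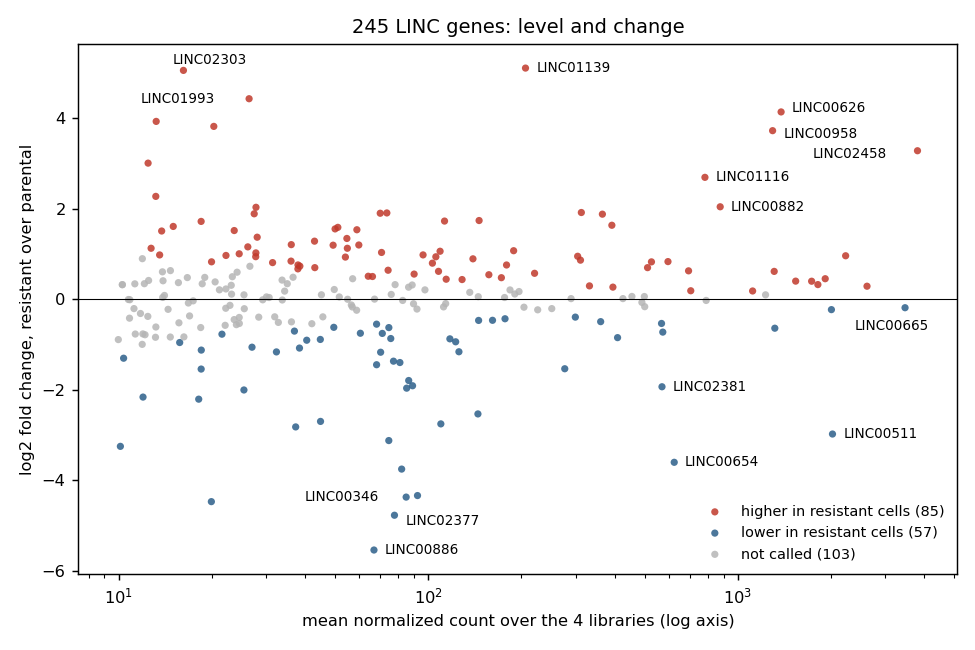
Log2 fold change (resistant over parental cells, vertical axis) of each of the 245 tested LINC genes against its mean normalized count over the 4 libraries (log axis), 1 point a gene. Red points are the 85 LINC genes higher in resistant cells, blue points the 57 lower and grey points the 103 not called, and the widest changes, above 5 and below -5, lie at low and middle levels.

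The level of a gene sets how small a change can be called, and the LINC genes were lowly expressed. Their median mean normalized count was 54.6, against 37.8 for other long noncoding genes, 1774 for protein-coding genes and 885 for all genes. Per kb of exon, on which genes of different length can be compared, the LINC median was 24.4, against 30.1 for other long noncoding genes and 329 for protein-coding genes. Under a mean of 30, 32 of 87 LINC genes were called (36.8%, against 33.4% of all genes at that level), and between 30 and 100 it was 50 of 79 (63.3% against 50.1%). Between 100 and 500, 34 of 50 were called (68.0% against 69.6%), and at 500 or more 26 of 29 (89.7% against 79.1%). In the same ranges, from low to high, 43.5, 60.2, 74.3 and 79.1% of protein-coding genes were called. For other long noncoding genes the shares were 28.8, 43.5, 61.7 and 81.2%. The 3 abundant LINC genes without a call, named here after their values were seen, were LINC01184, LINC01091 and LINC00476. LINC01184 had 1282 and 1263 normalized counts in resistant cells, against 1164 and 1211 in parental cells, which is a log2 fold change of 0.10 ± 0.05 (SE, 2 libraries a group).

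**Figure D2:**
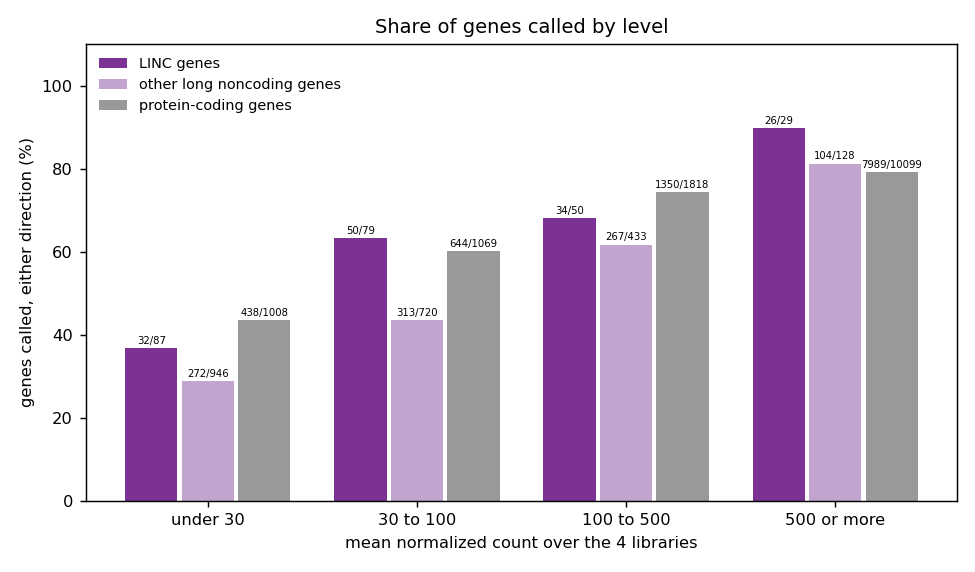
Share of genes called in either direction (%, bars from 0) by mean normalized count over the 4 libraries, for LINC genes, other long noncoding genes and protein-coding genes, with called over tested genes written above each bar. The LINC share goes from 36.8% under a mean of 30 to 89.7% at 500 or more.

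LINC00626 had the highest level per kb of all 245 LINC genes and had far lower counts in parental cells. It lies on chromosome 1 (GRCh38, 168786939 to 168792886, plus strand, by GENCODE 29) and has 955 exonic bases in 3 blocks. It had 2676 and 2553 normalized counts in resistant cells, against 146.0 and 148 in parental cells. The resistant libraries were far above the parental ones, with a log2 fold change of 4.14 ± 0.07 and a limma adjusted p of 9.2e-26. Its nearest tested protein-coding gene, ATP1B1, a subunit of the sodium pump 313 kb away, rose by far less, with a log2 fold change of 0.32 ± 0.04 (limma adjusted p 1.1e-08).

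LINC02458, on chromosome 12, had the highest count of any LINC gene in resistant cells. In parental cells other LINC genes stood higher, LINC00665 with 3649 and 3740 among them. LINC02458 lies at 89010681 to 89019679 on the minus strand, with 2941 exonic bases, and had 7228 and 6590 normalized counts in resistant cells against 726 and 689 in parental cells. The groups were far apart, with a log2 fold change of 3.28 ± 0.05 (limma adjusted p 4.0e-27). DUSP6, the phosphatase that inactivates the kinase ERK and the nearest tested protein-coding gene at 328 kb, differed by 0.39 ± 0.03 on the same scale (limma adjusted p 6.6e-13).

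LINC00958, which has been studied in bladder and other tumours, and LINC01139, also called LINK-A, a transcript described as binding kinases in breast cancer, were the other strong increases among well-known members. LINC00958 had 2392 and 2429 normalized counts in resistant cells, against 197 and 166 in parental cells, which is a log2 fold change of 3.73 ± 0.08 (limma adjusted p 4.0e-24). Its neighbour TEAD1, a transcription factor of the Hippo pathway 17.4 kb away, was not called, at 0.03 ± 0.03. LINC01139 had 427 and 376 normalized counts in resistant cells, against 8.70 and 12.9 in parental cells, which is a log2 fold change of 5.11 ± 0.21 (limma adjusted p 1.3e-17). Counted in reads, that is 789 in the resistant and 22 in the parental libraries, a ratio of 37.1 with a 95% interval of 24.3 to 59.6 that covers counting error only.

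LINC01116 and LINC01117 form a head-to-head pair beside the HOXD cluster on chromosome 2, and both rose. LINC01116 (176629589 to 176637931, minus strand) had 1413 and 1304 normalized counts in resistant cells, against 217 and 201 in parental cells, which is a log2 fold change of 2.70 ± 0.08 (limma adjusted p 7.2e-21). LINC01117 (176637710 to 176655958, plus strand) had 96.3 and 126 in resistant cells and 31.9 and 25.8 in parental cells, which is a log2 fold change of 1.90 ± 0.22 (limma adjusted p 2.7e-08). Both resistant values exceeded both parental values in each gene, which the rule for naming the largest increases required. The 2 genes overlap on opposite strands, over 12.5% of the exonic bases of LINC01116 and 31.8% of those of LINC01117, and since the strand setting of the counting is not given in the sources used here, reads of the shared bases cannot be assigned to one of them.

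The 300 bases around the start sites, 250 before and 50 from the start on, are shown for 3 of the genes that rose, because LINC00626 and LINC02458 had the highest counts per kb of exon in resistant cells and LINC01116 opens into the shared region of the head-to-head pair. The sequences are from RefSeq on GRCh38.p14, 5′ to 3′ on the strand of the gene, and capitals mark matches to any of 5 motifs searched on both strands: the box spelled TATAAA, the box spelled CCAAT, the E-box of myogenic factors spelled CAGCTG, the E-box of MYC spelled CACGTG and the AP-1 site spelled TGANTCA. The windows are chr1:168786691-168786990 (plus) for LINC00626, chr12:89019643-89019942 (minus) for LINC02458 and chr2:176637560-176637859 (minus) for LINC01116.
LINC00626: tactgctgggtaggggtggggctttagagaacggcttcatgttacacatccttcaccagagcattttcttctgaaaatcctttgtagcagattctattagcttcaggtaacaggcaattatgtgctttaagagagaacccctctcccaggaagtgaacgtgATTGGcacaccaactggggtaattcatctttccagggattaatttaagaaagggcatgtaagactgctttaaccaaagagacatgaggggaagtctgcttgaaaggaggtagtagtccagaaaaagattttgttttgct
LINC02458: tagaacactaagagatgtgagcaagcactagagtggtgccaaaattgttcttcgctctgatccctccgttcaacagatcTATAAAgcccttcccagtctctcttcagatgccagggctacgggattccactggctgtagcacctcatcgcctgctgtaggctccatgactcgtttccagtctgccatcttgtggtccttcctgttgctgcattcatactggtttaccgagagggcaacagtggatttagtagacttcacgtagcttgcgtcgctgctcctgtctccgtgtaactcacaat
LINC01116: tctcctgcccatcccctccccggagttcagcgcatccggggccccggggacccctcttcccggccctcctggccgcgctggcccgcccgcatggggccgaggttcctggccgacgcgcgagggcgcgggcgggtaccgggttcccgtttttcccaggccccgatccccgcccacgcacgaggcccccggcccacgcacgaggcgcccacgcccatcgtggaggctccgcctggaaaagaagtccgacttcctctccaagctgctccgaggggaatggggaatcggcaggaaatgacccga
The window of LINC00626 is poor in G and C, at 43.0%, and holds 1 match, a CCAAT box on the opposite strand 89 bases before the start. The window of LINC02458 has 50.3% G and C and 1 match, TATAAA 171 bases before the start. The window of LINC01116 has 72.7% G and C, 34 CG dinucleotides and no match, and its start lies 145 bases from that of LINC01117, so that the 2 windows share 244 bases.

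The remaining members of the 12 largest increases were LINC01993, LINC00882, LINC01266, LINC01238, LINC01686 and LINC00326. LINC00882 had 1412 and 1415.5 normalized counts in resistant cells, against 336 and 347 in parental cells, which is a log2 fold change of 2.05 ± 0.07. LINC01686, a gene of 1 exon block, had 554 and 595 in resistant cells and 179 and 134 in parental cells, which is a log2 fold change of 1.88 ± 0.12. LINC01266 had 528 and 462 in resistant cells and 125 and 135 in parental cells, which is a log2 fold change of 1.92 ± 0.11. For each of these 3 genes the lower resistant library was more than 2-fold above the higher parental one. LINC01238 and LINC00326, with log2 fold changes of 1.91 and 1.74, were less abundant, with 118 and 115 normalized counts for LINC01238 in resistant against 31.9 and 28.8 in parental libraries, and 207 and 244 for LINC00326 in resistant against 70.6 and 62.6 in parental libraries. By limma, the adjusted p of these 5 genes was at most 7.1e-09.

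Among the decreases, LINC00886 was nearly undetected in resistant cells. It lies on chromosome 3 (156747346 to 156817062, minus strand) and had 1.08 and 2.86 normalized counts in resistant cells against 144 and 119 in parental cells. In reads that is a sum of 4 in resistant and of 269 in parental cells, a ratio of 0.0154 with a 95% interval of 0.00416 to 0.0399 for counting error only, and a limma adjusted p of 6.3e-13. LINC00886 was named by rules that select such a contrast, so this interval and p-value are no separate support for it. Its nearest tested protein-coding gene, LEKR1, 8.42 kb away, also fell, by less, with a log2 fold change of -0.92 ± 0.25 (limma adjusted p 0.0018).

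LINC00511 and LINC00654 were the abundant members that fell most. LINC00511, a much studied transcript in breast and other tumours, spans 72290091 to 72640472 on chromosome 17 and had 472 and 439 normalized counts in resistant cells against 3620 and 3564 in parental cells. The groups were far apart, with a log2 fold change of -2.98 ± 0.06 (limma adjusted p 4.1e-25). LINC00654 on chromosome 20 (5496067 to 5504613, minus strand) had 98.5 and 89.7 in resistant cells against 1139.9 and 1166 in parental cells, which is a log2 fold change of -3.60 ± 0.10 (limma adjusted p 8.2e-22). Both lie in stretches where other genes were lower too. Such stretches were measured by the 20 nearest tested genes by start position, 10 on each side, with LINC genes left out. Near chromosome ends fewer were used. The median log2 fold change of these genes was -1.31 around LINC00511 and -0.62 around LINC00654. Relative to that median, LINC00511 stood at -1.66 and LINC00654 at -2.99.

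LINC00982, now named PRDM16-DT for its position divergent from PRDM16, fell together with that gene. It had 4.33 and 13.4 normalized counts in resistant cells against 179 and 173 in parental cells, which is a log2 fold change of -4.34 ± 0.32 (limma adjusted p 4.2e-12). PRDM16, a transcriptional regulator known for its part in the choice between muscle and brown fat, starts 0.731 kb away on the other strand and had 34.6 and 32.5 in resistant cells against 1052 and 1041 in parental cells, which is a log2 fold change of -4.92 ± 0.12 (limma adjusted p 1.7e-22). The 20 nearest tested genes around LINC00982 had a median of -0.10.

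The start windows of LINC00982, LINC00886 and LINC00654 are shown as those of a gene that fell with its divergent partner, of the widest decrease and of an abundant transcript that fell. Their positions are chr1:3067676-3067975, chr3:156817013-156817312 and chr20:5504547-5504846, all on the minus strand, from RefSeq on GRCh38.p14, with capitals again marking matches to the 5 motifs.
LINC00982: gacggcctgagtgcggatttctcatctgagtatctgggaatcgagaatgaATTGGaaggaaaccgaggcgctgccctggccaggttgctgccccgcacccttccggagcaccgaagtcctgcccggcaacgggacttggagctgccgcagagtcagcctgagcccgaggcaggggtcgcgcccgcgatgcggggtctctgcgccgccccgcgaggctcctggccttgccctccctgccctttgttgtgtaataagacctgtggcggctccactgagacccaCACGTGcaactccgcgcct
LINC00886: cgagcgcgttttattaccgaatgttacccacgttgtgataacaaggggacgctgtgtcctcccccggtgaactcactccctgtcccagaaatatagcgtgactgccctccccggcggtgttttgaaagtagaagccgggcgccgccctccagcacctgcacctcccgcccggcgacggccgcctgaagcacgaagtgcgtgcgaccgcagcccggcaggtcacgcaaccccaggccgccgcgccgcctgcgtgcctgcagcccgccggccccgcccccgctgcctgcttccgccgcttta
LINC00654: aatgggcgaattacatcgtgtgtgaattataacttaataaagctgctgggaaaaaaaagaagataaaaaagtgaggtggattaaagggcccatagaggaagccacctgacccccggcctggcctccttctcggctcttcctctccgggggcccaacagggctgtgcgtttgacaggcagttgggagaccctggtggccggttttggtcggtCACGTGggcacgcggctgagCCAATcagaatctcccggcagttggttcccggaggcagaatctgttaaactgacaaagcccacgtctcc
The LINC00982 window has 65.3% G and C, a CCAAT match on the opposite strand 200 bases before the start and a CACGTG match at base 32 after the start. The LINC00886 window has 67.7% G and C and no match. The LINC00654 window has 54.3% G and C, a CACGTG match 39 bases before the start and a CCAAT match 19 bases before it.

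Over the 184 of 245 LINC genes that matched a RefSeq window by symbol or synonym, the motifs were somewhat more frequent than over all 35116 windows of 300 bases. TATAAA was in 13.6% of LINC windows and 11.5% of all windows, CCAAT in 39.7% of LINC and 34.6% of all windows, and CAGCTG in 22.3% of LINC and 17.9% of all windows. CACGTG was in 9.24% of LINC and 7.26% of all windows, and TGANTCA in 14.1% of LINC and 7.71% of all windows. Within the LINC genes, CCAAT was in 41.5% of windows of the 65 that rose, 50.0% of the 42 that fell and 32.5% of the 77 not called, TATAAA in 16.9% of those that rose, 16.7% of those that fell and 9.09% of those not called, and TGANTCA in 15.4% of those that rose, 14.3% of those that fell and 13.0% of those not called. CAGCTG was in 21.5% of windows of those that rose, 16.7% of those that fell and 26.0% of those not called, and CACGTG in 4.62% of those that rose, 14.3% of those that fell and 10.4% of those not called. The median G and C content was 52.7% for those that rose, 54.7% for those that fell and 61.7% for those not called, beside 58.7% over all windows. LINC01238 and LINC02544 are listed in RefSeq as synonyms of LINC01237 and LINC01615 and were given windows of those genes. Each has the G and C content (59.3 and 54.0%) and the motif matches of its partner, so the same window appears to be counted under both symbols. A match is a run of letters and not a shown binding site, and these shares were not tested.

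The other 8 of the 12 largest decreases had resistant means of at most 42.0 normalized counts. LINC02377 had 5.41 and 3.82 normalized counts in resistant cells against 145 and 157 in parental cells, which is a log2 fold change of -4.77 ± 0.30. LINC00346, renamed PRECSIT in RefSeq, had 9.74 and 4.77 in resistant cells against 176 and 149 in parental cells, which is a log2 fold change of -4.37 ± 0.30, and LINC01615 had 5.41 and 19.1 in resistant against 151 and 153 in parental libraries, with a log2 fold change of -3.75 ± 0.34. In each of the 3 the resistant libraries were both far below the parental ones, although the resistant values themselves differed from each other by up to several fold at these low counts. LINC02535, LINC01356, LINC01234, LINC01239 and LINC00941 fell by 3.12, 2.82, 2.75, 2.70 and 2.53 on the log2 scale, with resistant means of 14.9 ± 4.91, 8.82 ± 4.37, 28.1 ± 7.55, 11.9 ± 6.12 and 42.0 ± 2.74 and parental means of 134 ± 1.26, 65.8 ± 16.5, 192 ± 7.24, 77.9 ± 1.93 and 248 ± 9.73 normalized counts (SD, 2 libraries each). By limma, the adjusted p of these 8 genes was at most 7.1e-08. The 20 nearest tested genes had a median of -0.83 around LINC00346, whose neighbour ANKRD10, 8.29 kb away, differed by -0.94 ± 0.04, and a median of 0.66 around LINC00941. All exonic bases of LINC00941 are shared with another annotated gene on the same strand, so its count is uncertain.

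**Figure D3:**
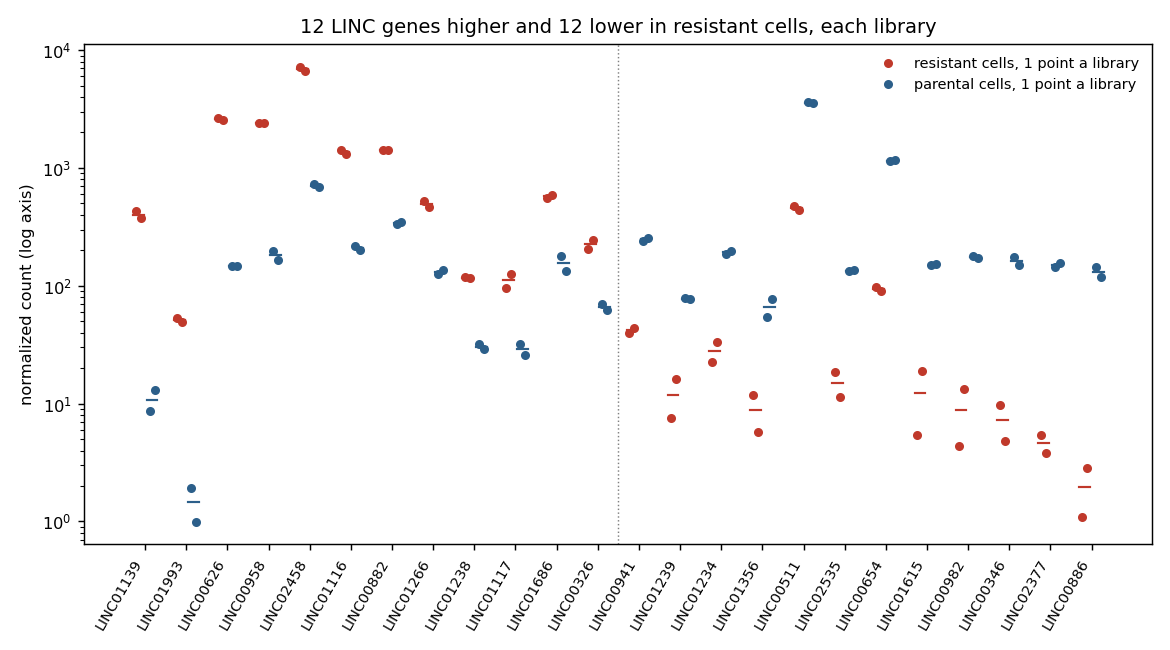
Normalized counts (log axis) in each library of the 12 LINC genes with the largest increases (left of the dotted line) and the 12 with the largest decreases (right), with red points for resistant and blue points for parental libraries and bars at the group means. All 24 genes were picked among called genes whose groups do not overlap, so the separation is set by that rule. LINC01139 lay at 427 and 376 in resistant and 8.70 and 12.9 in parental cells. LINC00886 lay at 1.08 and 2.86 in resistant and 144 and 119 in parental cells.

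Several LINC genes had almost no reads in one group. LINC02303 on chromosome 14 had 29 and 35 reads in the resistant libraries and 0 in both parental libraries, at least 22.1-fold higher against a floor of 3 reads over the parental group (limma adjusted p 7.0e-08). LINC01993 on chromosome 17 had 49 and 52 reads in resistant and 2 and 1 in parental libraries, a ratio of 34.8 with a 95% interval of 11.6 to 172. LINC01411 had 25 in each resistant library and 0 and 2 in the parental libraries, a ratio of 25.9 (6.8 to 219). These 3 genes were seen almost wholly in resistant cells. LINC01524 (37 and 39 reads in resistant, 1 and 3 in parental libraries) and LINC01708 (23 and 22 in resistant, 2 and 2 in parental libraries) showed the same pattern, with ratios of 19.7 (7.37 to 74.0) and 11.6 (4.24 to 44.6). In the other direction, LINC01399 had 2 and 0 reads in the resistant libraries and 35 and 44 in the parental libraries, a ratio of 0.0262 (0.00312 to 0.0978). The intervals are at 95% and cover counting error only, and by limma the adjusted p of these 6 genes was at most 1.5e-05. These genes were picked for 3 or fewer reads in each library of one group and a mean of at least 20 in the other. Their p-values and intervals are therefore no separate support for a difference. Reads without molecular identifiers are not independent molecules.

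Ranked per kb of exon over the 4 libraries, LINC00626 and LINC02458 led at 1446 and 1295 normalized counts per kb, and the order below them was LINC00839, LINC00888, LINC02544, LINC02575, LINC00847, LINC01963, LINC01578 and LINC00665, from 955 down to 482. The lowest LINC gene stood at 1.23. The order depended on the group: in resistant cells LINC00626 had 2802 and 2674 per kb, against 153 and 155 in parental cells. In parental cells LINC00888, at 1024 and 1009 per kb, and LINC02544, at 965 and 969, stood above the other 8 of these genes, and these 2 did not overlap. In resistant cells LINC00888 had 859 and 877 per kb and LINC02544 513 and 561.

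All 10 LINC genes with the highest level per kb were called, but LINC00665, LINC00888 and LINC01578 lost the call in edgeR with the dispersion fixed at 0.01 (adjusted p 0.32, 0.22 and 0.095) and in limma against a 1.2-fold change (adjusted p 1.0, 1.0 and 0.52). LINC00839 had 2931 and 2969 normalized counts in resistant cells against 1523 and 1503 in parental cells, which is a log2 fold change of 0.96 ± 0.04 (limma adjusted p 1.8e-16). Relative to the median of its 20 nearest tested genes, LINC00839 stood at 0.46. LINC02544 and LINC02575 fell by 0.85 and 0.72 on the log2 scale, LINC00847 and LINC01963 rose by 0.40 each, and LINC00888, which RefSeq now lists as SNHG33, a host gene of small nucleolar RNA, fell by 0.23. LINC00665 had 3297 and 3200 in resistant cells against 3649 and 3740 in parental cells, which is a log2 fold change of -0.19 ± 0.04 (limma adjusted p 0.00018). Its neighbours were lower still: relative to the median of the 20 nearest tested genes, -0.40, LINC00665 stood 0.22 higher. LINC01963 stood at -0.11 relative to its 20 nearest tested genes, whose median was 0.51, so its direction too flips on that scale.

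**Figure D4:**
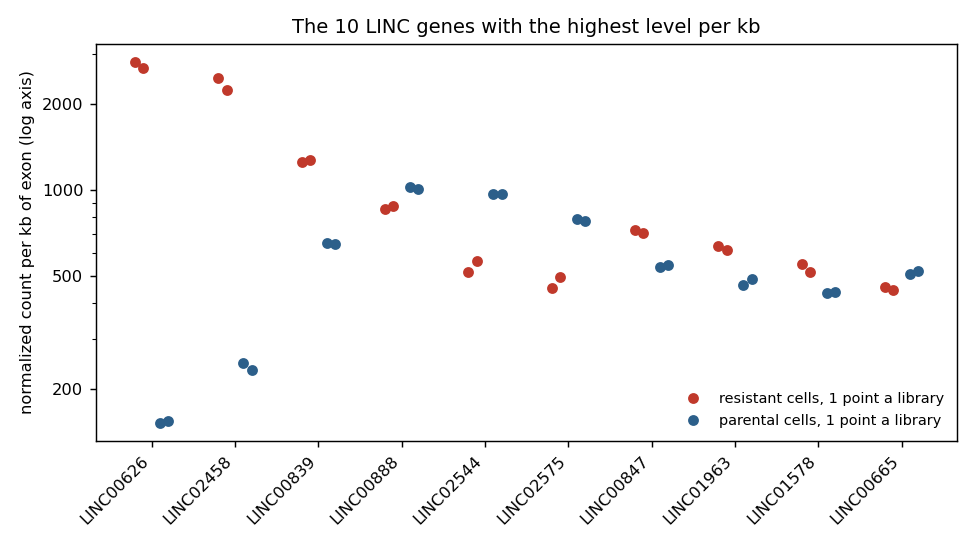
Normalized count per kb of exon (log axis) in each library for the 10 LINC genes with the highest mean level, in order, with red points for resistant and blue points for parental libraries. LINC00626 lies at 2802 and 2674 in resistant and at 153 and 155 in parental cells, and the groups stand apart by much less in the 8 genes to the right of LINC02458.

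LINC01578, called CHASERR in RefSeq, is one of the few members with an established target. It lies beside CHD2, a chromatin remodeller, and is known from mouse and human to restrain CHD2 in cis. It had 2975 and 2783 normalized counts in resistant cells against 2337 and 2370.0 in parental cells, which is a log2 fold change of 0.29 ± 0.04 (limma adjusted p 2.0e-06). CHD2, 0.488 kb away, averaged 4951 in resistant cells and 4847.5 in parental cells, in normalized counts, and was not called, at 0.03 ± 0.04 (limma adjusted p 0.47). The call of LINC01578 was lost when its change was tested against 1.2-fold.

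Better known LINC genes were followed in lists, by LINC symbol only, so a listed gene that stands in the table under another name was not looked up. Of 8 genes known for a small encoded protein, LINC00467, whose transcript encodes a mitochondrial peptide, was the 1 tested, and it had 239 and 274 normalized counts in resistant cells, against 115 and 127 in parental cells, which is a log2 fold change of 1.07 ± 0.13 (limma adjusted p 4.6e-08). None of 4 microRNA or circular RNA hosts and none of 3 muscle or heart LINC genes was among the rows under its LINC symbol. Of 22 genes studied in tumours 12 were found under their LINC symbol and tested. Of these, 4 were higher, 7 lower and 1 not called, with a median log2 fold change of -0.41, beside 32.7% higher, 34.2% lower and a median of 0.00 over all genes. Beside the HOX clusters, LINC01116 rose and LINC02381 near the HOXC cluster fell, with 235 and 237 normalized counts in resistant cells against 900.1 and 906 in parental cells, which is a log2 fold change of -1.93 ± 0.08 (limma adjusted p 1.8e-17).

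Among the 12 genes studied in tumours, LINC01139, LINC00958, LINC00472 and LINC00963 rose and LINC00346, LINC00511, LINC01234, LINC00941, LINC01705, LINC00662 and LINC00665 fell. LINC00963 had 2203 and 2232 normalized counts in resistant cells against 1608 and 1625 in parental cells, which is a log2 fold change of 0.46 ± 0.05. LINC00662 had 1072 and 989.8 in resistant cells against 1595 and 1614 in parental cells, which is a log2 fold change of -0.64 ± 0.06. LINC00472 was less abundant, at 120.1 and 142 in resistant cells against 81.2 and 88.5 in parental cells, which is a log2 fold change of 0.62 ± 0.16 (limma adjusted p 0.0017). LINC01705 rested on few reads, 5 and 6 in the resistant and 16 and 15 in the parental libraries, a log2 fold change of -1.30 ± 0.48 (limma adjusted p 0.019), and the call was lost without either parental library, at limma adjusted p of 0.072 and 0.059. LINC01605 had 50.9 and 42.0 in resistant cells and 53.2 and 34.8 in parental cells, so the groups overlapped, and its log2 fold change of 0.10 ± 0.26 did not pass the test.

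The direction of a LINC gene was often that of its nearest tested protein-coding gene. Of 244 LINC genes with a position, 159 had the same sign of log2 fold change as the nearest tested protein-coding gene (65.2%), beside 66.4% for other long noncoding genes and 61.9% for protein-coding genes. The median distance was 26.0 kb. Within 10 kb the share was 60 of 87 (69.0%), and beyond 100 kb it was 48 of 72 (66.7%). Where both genes were called, 81 of 109 pairs had the same direction (74.3%), and within 10 kb 26 of 30 (86.7%). The same share was 80.8% for other long noncoding genes (83.0% within 10 kb) and 68.1% for protein-coding genes (69.4% within 10 kb), and these differences were not tested. Across the 244 pairs the Spearman correlation of the log2 fold changes was 0.38, a description across genes that share libraries and chromosome segments.

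In 22 pairs the LINC gene and its neighbour pointed apart from starts within 5 kb, the divergent arrangement of a shared promoter region. The signs were the same in 15 of the 22 (68.2%), beside 66.9% of divergent other long noncoding genes and 65.1% of divergent protein-coding genes. With both genes called, the direction was shared in 79.1 and 76.8% of divergent pairs in those classes. These shares were not tested. Among the LINC pairs both genes were called in 3, each in the same direction. Beside LINC00982 with PRDM16, these were LINC01134 with C1orf174 and LINC01137 with ZC3H12A, named after their values were seen. LINC01134 had 43.3 and 44.9 normalized counts in resistant cells against 127 and 109 in parental cells, which is a log2 fold change of -1.40 ± 0.19 (limma adjusted p 4.1e-07), and C1orf174 differed by -0.26 ± 0.05. LINC01137 had 228 and 222 in resistant cells against 126 and 140.2 in parental cells, which is a log2 fold change of 0.76 ± 0.13 (limma adjusted p 9.7e-06), and ZC3H12A, which encodes an RNase that degrades inflammatory messenger RNAs, differed by 0.52 ± 0.08. LINC00941, divergent from CAPRIN2 with starts 0.216 kb apart, fell while CAPRIN2 was not called, at -0.05 ± 0.06.

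Other named LINC genes were called in the same direction as their nearest tested protein-coding gene, which for some lies far away. LINC02377 fell, and so did PCDH10, a protocadherin gene as far as 1608 kb away. PCDH10 had 22.7 and 22.9 normalized counts in resistant cells against 1695 and 1761 in parental cells, which is a log2 fold change of -6.18 ± 0.12 (limma adjusted p 7.1e-25). LINC01266 rose, and so did CNTN6, a neural adhesion gene 247 kb away. CNTN6 had 175 and 163 in resistant cells against 0.967 and 5.96 in parental cells, which is a log2 fold change of 5.52 ± 0.41 (limma adjusted p 2.9e-12). LINC01615 and LINC02544 fell beside THBS2, the gene of the matrix protein thrombospondin 2, 52.9 and 33.0 kb away, at -1.64 ± 0.03, and LINC02535 beside NT5E, the gene of the surface enzyme CD73, 59.4 kb away, at -1.09 ± 0.03. LINC00511 fell beside SLC39A11, a zinc transporter gene 5.48 kb away, at -1.68 ± 0.05.

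Some LINC genes went against their nearest tested protein-coding gene. LINC01993 rose while BIRC5, which encodes the inhibitor of apoptosis survivin 35.7 kb away, fell to 11445 normalized counts on average in resistant cells, against 22531 in parental cells, which is a log2 fold change of -0.98 ± 0.03 (limma adjusted p 9.3e-21). The 20 nearest tested genes around LINC01993 had a median of -1.21. LINC01708 rose while PALMD fell, at -0.67 ± 0.04. LINC01790 had 3 and 0 reads in the resistant and 18 and 20 in the parental libraries, a ratio of 0.0817 (95% interval 0.0161 to 0.257, counting error only), while SLC39A10, a zinc transporter gene 815 kb away, rose by 0.54 ± 0.05. LINC01399 and LINC01234 fell while HMGXB4 and RBM19 differed by 0.11 ± 0.04 and 0.18 ± 0.04, both called higher. LINC02381 fell while SMUG1, a DNA repair gene that it overlaps on the other strand, rose by 0.43 ± 0.05.

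**Figure D5:**
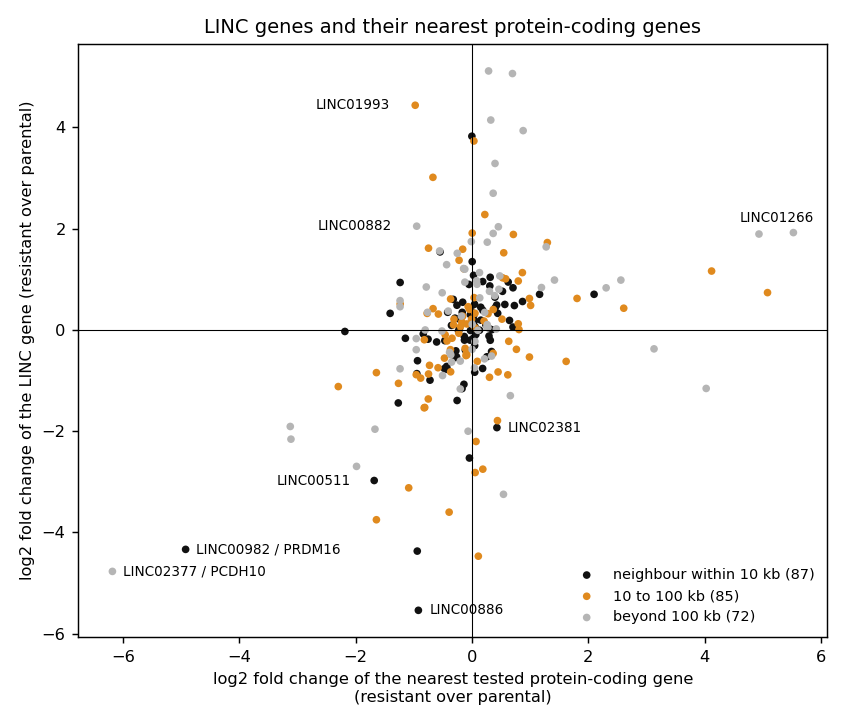
Log2 fold change (resistant over parental cells) of each of 244 LINC genes (vertical axis) against that of its nearest tested protein-coding gene (horizontal axis), with black points for neighbours within 10 kb (87), orange for 10 to 100 kb (85) and grey for beyond 100 kb (72). 159 points lie where both values have the same sign, among them LINC00982 with PRDM16 at -4.34 and -4.92, and LINC01993 and LINC00882 rose beside neighbours that fell.

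Whole stretches of the genome were shifted between the groups, and LINC genes in them were called more often in the direction of the stretch than against it. For 17 LINC genes the 20 nearest tested genes had a median log2 fold change of -0.5 or less, and 9 of these fell, 2 rose and 6 were not called, with a median of -0.75. For 17 the local median was 0.5 or more, and 12 rose, 2 fell and 3 were not called, with a median of 0.70. Relative to the local median these medians were -0.09 and 0.09. The other 210 lay between, with 70 higher, 46 lower and 94 not called. By chromosome, 12 of 21 LINC genes on chromosome 12 and 6 of 9 on chromosome 10 rose, where 64.7 and 61.3% of the other tested genes did, and on chromosome 20, where 60.6% of other genes fell, 3 of 8 LINC genes fell and 2 rose. Most other genes also fell on chromosomes 19 and 4 (57.2 and 51.0%), where 2 of 6 and 2 of 9 LINC genes fell and 2 and 1 rose. On chromosome 18 it was 6 of 12 LINC genes that rose, beside 35.5% of the other genes. Copy number was not analysed here, so a changed gene dose and a changed expression per copy cannot be told apart.

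Adjacent LINC genes were compared with each other too. Of 12 adjacent pairs within 100 kb, 10 had the same sign, and in the 4 pairs with both genes called the direction was shared. These were LINC01116 with LINC01117, LINC01237 with LINC01238, LINC02449 with LINC00937 and LINC01615 with LINC02544. LINC01237 and LINC01238 differed by 1.35 and 1.91, and LINC02449 and LINC00937 by 0.54 and 1.59 on the log2 scale. RefSeq lists LINC01238 as a synonym of LINC01237 and LINC02544 as a synonym of LINC01615, so 2 of the 4 pairs may each be 1 gene. Several pairs overlap or touch, LINC01116 with LINC01117 and LINC01237 with LINC01238 among them, and the part of shared bases was not tested. Protein-coding genes within 100 kb of their nearest protein-coding gene had the same sign in 61.9%. With both called, they had the same direction in 68.3%.

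Despite the name, the annotation was mixed. GENCODE 29 on GRCh38 places 244 of the 245 tested genes, all but LINC01372, and types 204 as intergenic long noncoding, 15 as antisense, 14 as processed transcripts, 8 as pseudogenes, 2 as bidirectional and 1 as protein-coding. For 75 some exonic bases are shared with another gene on either strand, 23 of them higher and 17 lower in resistant cells, and their counts are less certain. Without these, 62 of 170 were higher and 40 lower.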

How the data were processed

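Poly(A)-enriched RNA of 4 RD libraries was sequenced. Per the submitters' processing notes, the authors used STAR 2.5.2b on GRCh38, featureCounts of Subread 1.5.2 and, beside these, bcl2fastq 2.17 and DESeq2. The sources used here name no annotation and no strand setting. The table deposited by the authors holds a signal per library, namely gene counts divided by a size factor (normalized counts). The authors' log2 fold change and p-value columns were used only for the counts credited to their deposited table. Groups and columns came from the sample labels, and 0 columns of other samples were present.

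All values in every library were whole multiples of 1 step (100% within 0.01), so reads were recovered, with size factors of 0.924 and 1.05 (resistant) and 1.03 and 1.01 (parental). Genes with at least 10 normalized counts in at least 2 libraries were fitted with limma 3.58.1 (lmFit, eBayes with trend, R 4.3.3) on log2(value + 1) by group, two-sided, with p-values adjusted over all genes after Benjamini and Hochberg and called below 0.05. Fold changes are differences on that scale, where the added 1 draws low genes towards 0. For single low genes the count-based fold changes of edgeR and DESeq2 were larger or smaller than these. SE is limma's moderated standard error. An exact permutation test of 2 against 2 libraries cannot go below 0.333, so none was used. Libraries of 1 group differed beyond sampling noise (chi-square per gene 4.00 resistant, 1.61 parental; common dispersion 0.000554, a coefficient of variation of 2.35%). The script was tested on simulated data.

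The members, gene lists and tests were chosen with earlier results of these data known. Genes were named by these rules: the 12 largest and 12 smallest fold changes among called genes whose higher group averages 50 or more and whose groups do not overlap; the 10 highest per kb of exon; the listed better known genes; genes with 3 or fewer reads in each library of one group and a mean of at least 20 in the other; and the 5 widest called genes whose neighbour was called the other way. For genes named by the size of their change or by few reads, p-values and intervals are no separate support for a difference. Positions and exon lengths are from GENCODE 29. The same-numbered libraries of the 2 groups did not deviate together (correlation -0.03 over 18330 genes), and the libraries were treated as unpaired. Whether same-numbered libraries were handled together is settled neither by that correlation nor by the labels. Alternatives were edgeR 4.0.16 and DESeq2 1.42.0 on recovered reads, other pseudocounts (0.5 and 5), filters and scalings, a 1.2-fold threshold, a dispersion fixed at 0.01, removal of the local median, and leaving out each library. A further marker list of another cell type is not reported here.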

Additional observations from a re-analysis of the deposited data

How the results depend on the processing

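The counts of LINC genes called higher (85) and lower (57) kept within 1.5 times under every alternative run: 61 and 44 with DESeq2, 59 and 44 against a 1.2-fold change, 59 and 42 with a minimum of 50, 76 and 56 with the dispersion fixed at 0.01, and 73 and 56 with the median of neighbouring genes removed. Leaving out 1 library gave 74 to 77 higher and 48 to 58 lower, 41 to 45 and 30 to 36 of them by at least 2-fold. At least 2-fold higher were 25 LINC genes (42 before) with a minimum of 50, where 137 LINC genes were tested. Of the 142 called, 141 had the same call in edgeR, 105 in DESeq2 and 130 with the fixed dispersion, and 85 (50 higher, 35 lower) in every alternative that tested them.

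The median log2 fold change of the LINC genes, 0.10, was 0.0729 with edgeR, 0.0744 with DESeq2, 0.0728 with the fixed dispersion, 0.12 with a minimum of 50, 0.13 with columns rescaled to the same total (which moved the median of all genes to 0.04), 0.0770 with the neighbour median removed, 0.17 over LINC genes that share exons with no other gene (an alternative chosen after seeing the data), and 0.12 to 0.17 without 1 library. Directions turned for LINC00665 (0.22) and LINC01963 (-0.11, limma adjusted p 0.050) with the neighbour median removed, and for the uncalled LINC01605 (-0.11 there, -0.20 to 0.40 without 1 library). The call was lost for LINC00665, LINC00888 and LINC01578 with the fixed dispersion and against 1.2-fold, for LINC00472 against 1.2-fold, and for LINC01705 with DESeq2, against 1.2-fold and without either parental library; the cause was not tested. With the replicate number as a block, 84 were higher and 56 lower, and no named gene changed its call.

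With 2 libraries a group, no labelled batch and many members under 30 counts, small changes of low LINC genes were not detectable at this depth. Expression below the table's minimum is not covered. The annotation behind the counts is not given in the sources used here, so exon lengths from GENCODE 29 are approximate.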

Other observations

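Several further LINC genes of moderate level, chosen after their values were seen, lie beside a protein-coding gene with a wide change. LINC02454 had 566 and 622 normalized counts in resistant cells, against 194 and 186 in parental cells, and MSRB3, a methionine sulfoxide reductase gene 111 kb away, differed by 1.27 on the log2 scale. LINC01515 had 695 and 653 in resistant cells, against 368 and 390 in parental cells, beside CTNNA3, which encodes alpha-T-catenin, at 2.30. Both LINC genes and both neighbours were called higher by limma. Both LINC genes lie in stretches with a local median of 0.5 or more. LINC00674 had 160.1 and 124 in resistant cells, against 405 and 416 in parental cells, beside KPNA2, a nuclear import gene that fell by 0.81. LINC00674 lies where the local median was -0.5 or less, and its call was not kept in every alternative. The part of these shifted stretches in the pairs was not tested. LINC01579 went the other way from its neighbour, with 74.7 and 80.2 in resistant cells, against 173 and 175 in parental cells, while MCTP2, 161 kb away, rose by 4.02.

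Of the LINC symbols in the table, RefSeq has since given other names to some that lie divergent from a known gene. LINC01135, now JUN-DT, had 5.41 and 11.5 normalized counts in resistant cells and 14.5 and 13.9 in parental cells and was not called by limma (adjusted p 0.16), while JUN, which encodes a subunit of AP-1 and starts 0.801 kb away, differed by -0.48. LINC01184, now SLC12A2-DT, was not called either, while SLC12A2, an ion cotransporter gene, differed by 0.24.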
